A study of Mus musculus with 8 samples.

Results

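DNA replication, checkpoint and mitosis genes were followed in whole Peyer's patches, which are clusters of lymphoid follicles in the wall of the small intestine. The list held 40 genes, 25 of replication, 4 of the replication checkpoint and 11 of mitosis. A member was read through the array's probe sets whose annotation names that gene alone. There were 88 such probe sets among 45101 on the array, and 70 of them, for 38 of the 40 genes, passed the intensity filter. Ccnb1 was not analysed here, and the 4 probe sets of Tyms stayed below the filter, at no more than 5.25 on any array against a filter of 11.9. The mice were C3H/Hej, 6 weeks old at the start, and were gavaged daily for 28 days. The OVA mice received ovalbumin, an egg white protein, in a dose of 40 mg/kg each day and are labelled allergic, and the controls received normal saline, the vehicle. The groups were 1 female control (mouse 7), 1 male control (mouse 8), 2 female OVA mice (2 and 12) and 4 male OVA mice (1, 5, 8 and 13), with 1 single-colour array for each. With 1 control in each sex, the 2 controls differ in sex as well, and precision is limited by how few arrays there are.

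Before a cell divides, the MCM helicase is loaded at origins by Cdc6 and Cdt1, is switched on by Cdc45 and the GINS complex, and unwinds DNA for the polymerases. The ring-shaped clamp PCNA, placed by the RFC clamp loader, holds the polymerases on DNA, and a related ring that contains Rad1 and Hus1 marks damaged or stalled DNA for the Chek1 checkpoint kinase. Mitosis is then driven by Cdk1 with cyclin B and by the Aurora and Polo kinases. In a Peyer's patch the cells that divide most are germinal centre B cells, and the crypts of the surrounding gut wall hold dividing epithelial cells.

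The arrays had 2 to 98% trimmed mean intensities of 65.1 to 68.2. Of the marker genes fixed for B cells, 11 of the 11 with a probe set passed the filter, against 3 of 9 for neurons and glia, a check made because the extraction text of the labels speaks of brain cortex from a patient. The arrays of female OVA 12 and male OVA 8 stood apart and had the highest B cell levels, at 0.58 and 0.66 above the mean of the 8 arrays on the log2 scale. OVA differences of members that moved by over 1.5 times when both were left out are given both ways. In whole tissue, more dividing cells and more RNA per dividing cell cannot be told apart.

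The comparison of OVA with saline asked which transcripts of the patch differ after repeated oral exposure to the allergen. All 38 members past the filter had a higher fitted mean in OVA mice, where 53.7% of all 11988 genes did. Log2 differences, taken between log2(intensity + 4.88) values with sex in the fit, ran from 0.10 to 0.76 with a median of 0.33, against a median of 0.02 over all genes. The median was 0.37 over 24 replication genes, 0.49 over 4 checkpoint genes and 0.26 over 10 mitosis genes. None of these differences passed limma with Benjamini-Hochberg adjustment over all 22518 probe sets tested, where 0% of all genes passed (smallest adjusted p of a member 0.241). At an unadjusted p under 0.05, 8 of 38 members were higher and 0 lower, beside 6.39% and 3.82% of all genes. They were Rad1, Rfc3, Chek1, Rfc4, Cdc45, Rpa2, Prim1 and Pcna, and the count in either direction was 4 without the female control and 5 without the male control, where 7.43% and 9.84% of all genes had such a p. All 6 OVA mice lay above both controls for 11 members, beside 7.99% of all genes, and below both for 0, beside 4.65%.

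The size of these differences rested in large part on 2 mice. For 34 of the 38 members the 2 highest arrays were female OVA 12 and male OVA 8, which was so for 20.8% of all genes. Leaving out its 2 highest arrays must lower a member's OVA mean, so a fall was certain for those 34 and only its size is described. Without both arrays, a setting chosen after seeing the data, 33 of 38 members were higher in OVA mice. Their median was then 0.16, with 0.18 for replication, 0.40 for checkpoint and 0.11 for mitosis genes, and 9 members had an unadjusted p under 0.05, beside 8.95% of all genes. The 5 members then lower were Lig1, Top2a, Pola1, Fen1 and Bub1. Every count of members is over genes that share arrays and, in part, cells, so the members are not independent of each other.

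**Figure D1:**
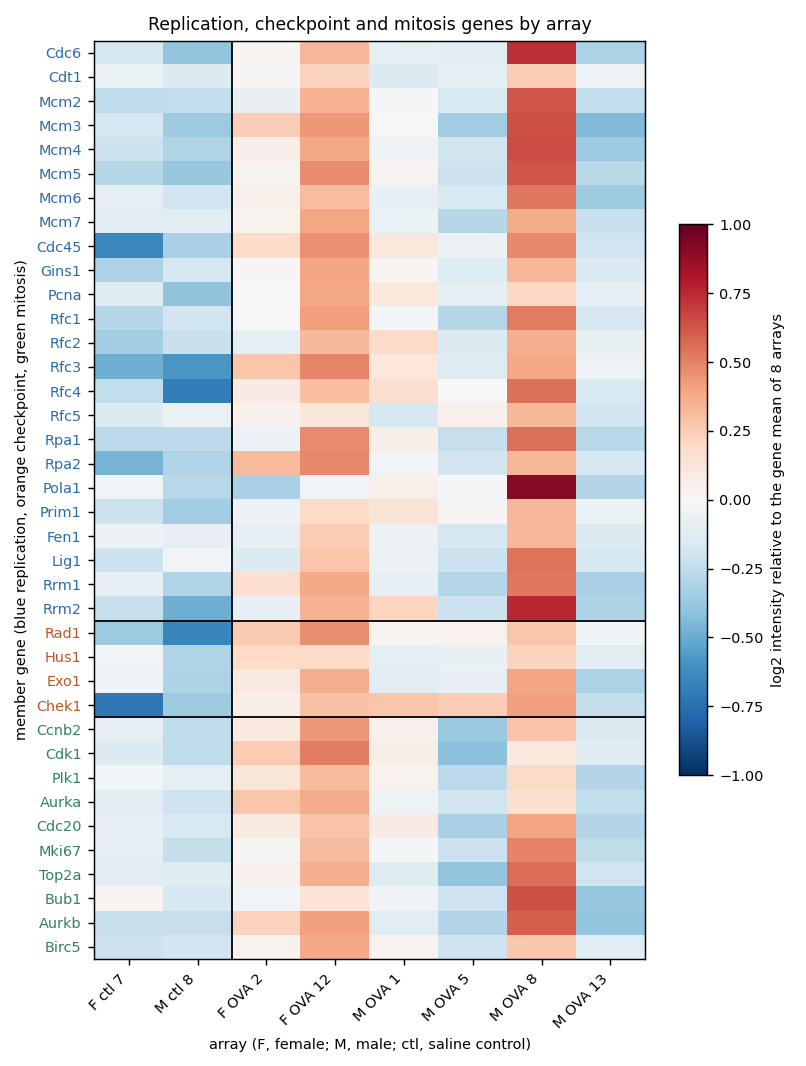
Log2 intensity of the 38 members past the filter (rows, ordered by role) on the 8 arrays (columns), each relative to the gene's mean over the arrays; the vertical line parts the 2 controls from the 6 OVA mice, and the horizontal lines part replication, checkpoint and mitosis genes. Female OVA 12 and male OVA 8 are the 2 highest columns for 34 of 38 members, and male OVA 5 is pale for most replication genes and blue for mitosis genes.

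The promoters of a few members are shown because members varied together across the mice, and because replication and mitosis genes are known to be driven by different elements. Textbook elements are the E2F site in genes of DNA synthesis, and the CHR element with CCAAT boxes in genes of mitosis. The window is the 250 bases before the transcript start in RefSeq, build GRCm38.p6 of the C57BL/6J strain, not of the C3H/Hej mice studied, printed 5′ to 3′ on the gene's strand. Capitals mark matches, on either strand, to E2F (TTTGGCGC, TTTCCCGC, TTTGCCGC or TTTCGCGC), CHR (TTTGAA or TTCGAA) or CCAAT. Matches to E2F letters can overlap each other, and the shares below count genes with at least 1 match at any listed start. Mcm5 is a helicase gene picked because it has overlapping E2F matches. Not all helicase genes are like it, as the windows of Mcm2 and Mcm3 held no E2F match. Rfc3 and Rad1 had the smallest p among replication and checkpoint members, and Cdk1 and Top2a stand for mitosis genes with CHR and CCAAT.
Mcm5, chr8:75109259-75109508, plus strand: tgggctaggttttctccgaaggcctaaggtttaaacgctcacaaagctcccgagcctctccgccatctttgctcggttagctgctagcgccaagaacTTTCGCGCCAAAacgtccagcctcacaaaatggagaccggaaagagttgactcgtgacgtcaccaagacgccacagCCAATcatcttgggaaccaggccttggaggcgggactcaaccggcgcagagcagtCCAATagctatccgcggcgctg
Rfc3, chr5:151651209-151651458, minus strand: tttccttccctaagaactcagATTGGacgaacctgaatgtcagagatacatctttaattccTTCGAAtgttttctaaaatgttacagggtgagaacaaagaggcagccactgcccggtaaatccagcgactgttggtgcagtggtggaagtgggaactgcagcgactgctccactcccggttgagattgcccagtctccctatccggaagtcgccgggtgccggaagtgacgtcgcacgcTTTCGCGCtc
Rad1, chr15:10485768-10486017, plus strand: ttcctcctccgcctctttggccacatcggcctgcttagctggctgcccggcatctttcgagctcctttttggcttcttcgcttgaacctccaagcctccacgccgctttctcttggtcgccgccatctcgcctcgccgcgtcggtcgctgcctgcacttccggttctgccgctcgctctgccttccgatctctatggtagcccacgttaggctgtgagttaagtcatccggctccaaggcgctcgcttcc
Cdk1, chr10:69352913-69353162, minus strand: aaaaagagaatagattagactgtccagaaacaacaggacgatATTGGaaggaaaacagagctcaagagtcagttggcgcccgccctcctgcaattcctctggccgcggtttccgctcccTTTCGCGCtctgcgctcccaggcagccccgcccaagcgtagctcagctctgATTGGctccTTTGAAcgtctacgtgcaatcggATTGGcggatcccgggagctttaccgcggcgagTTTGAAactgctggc
Top2a, chr11:99024190-99024439, minus strand: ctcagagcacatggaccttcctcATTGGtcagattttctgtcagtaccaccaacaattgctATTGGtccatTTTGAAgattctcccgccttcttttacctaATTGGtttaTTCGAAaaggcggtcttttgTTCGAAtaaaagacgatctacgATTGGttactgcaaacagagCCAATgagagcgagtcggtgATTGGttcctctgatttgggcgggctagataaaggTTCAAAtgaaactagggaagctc

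The promoter table held 35 of the 40 members, without Mcm4, Gins1, Exo1, Rfc2 and Aurkb. E2F letters were present for 6 of 22 replication genes (27.3%), 0 of 3 checkpoint genes and 1 of 10 mitosis genes, which is Cdk1, beside 3.83% of 9660 genes past the filter that have a promoter in the table. The 6 were Mcm5, Mcm6, Mcm7, Rfc3, Cdc6 and Pola1. CHR letters were present for 5 of 22 replication genes (22.7%) and 5 of 10 mitosis genes (50%), beside 14.6% of all genes. CCAAT was present for 15 of 22 (68.2%) and 9 of 10 (90%), beside 39.8%. CHR together with CCAAT was found for 5 of 10 mitosis genes (Cdc20, Mki67, Ccnb2, Cdk1 and Top2a) and 4 of 22 replication genes (18.2%), beside 6.47% of all genes. None of the 3 sets of letters was in the windows of Rad1, Rfc4, Chek1, Birc5, Rfc5, Lig1, Cdt1 and Tyms. A match in this window is a description of letters only.

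In their brightest probe sets, genes that load and form the helicase had a median log2 difference of 0.36 over 8 of 8 members. Of these 8, 0 had an unadjusted limma p under 0.05, beside 6.39% higher and 3.82% lower of all genes. Mcm5, a helicase subunit, had the smallest p of them, and its intensity was 311 in the female control, 291 in the male control, 387 and 528 in female OVA 2 and 12, and 387, 326, 588 and 312 in male OVA 1, 5, 8 and 13. All 6 OVA mice were above both controls, male OVA 13 only just above the female control, and the difference was 0.47 ± 0.24 (SE) with an adjusted p of 0.484. For the other helicase subunits the differences were 0.34 ± 0.23 (SE) for Mcm2, 0.41 ± 0.26 (SE) for Mcm3, 0.37 ± 0.24 (SE) for Mcm4, 0.22 ± 0.21 (SE) for Mcm6 and 0.18 ± 0.19 (SE) for Mcm7. The estimates varied with the probe set. Others past the filter had 0.69 for Mcm6 (unadjusted limma p 0.042) and 0.41 (unadjusted limma p 0.045), 0.31 and 0.23 for Mcm7. They had 0.44 for Mcm2, 0.31 to 0.45 for Mcm3, 0.62 for Mcm4 and 0.31 for Mcm5, there with 4 OVA mice above both controls. Mcm4 for example stood at 318 in the female control, 299 in the male control, 387 and 485 in female OVA 2 and 12, and 357, 324, 584 and 285 in male OVA 1, 5, 8 and 13. In the brightest probe sets male OVA 13 was thus below both controls for Mcm4, as it was for Mcm3, Mcm6 and Mcm7. In the other probe sets past the filter this mouse lay between the controls for Mcm4 (61.9) and Mcm6 (103). For Mcm7 it was above both at 119 and 142 and below both at 155. For Mcm3 it was below both at 91.4 and 98.1 and between them at 22.5. Of the loading factors, Cdc6 stood at 26.0 and 21.5 in the controls and 23.0 to 52.7 with a median of 29.1 in OVA mice, a difference of 0.40 ± 0.25 (SE). Cdt1 stood at 513 and 489.5 in the controls and 491 to 642 with a median of 532 in OVA mice, a difference of 0.16 ± 0.13 (SE), and its groups overlapped. Female OVA 12 and male OVA 8 were the 2 highest mice for each of these 8 genes. Without both the differences were 0.26 for Mcm5, 0.14 for Mcm2, 0.23 for Mcm3, 0.17 for Mcm4, 0.055 for Mcm6, 0.0065 for Mcm7, 0.21 for Cdc6 and 0.060 for Cdt1.

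Both genes of helicase activation, only 2, had all OVA mice above both controls in their brightest probe set, beside 7.99% of all genes. For Cdc45 a second probe set ran the other way. Cdc45, which joins the helicase at origins, stood at 27.1 in the female control, 35.0 in the male control, 51.5 and 63.4 in female OVA 2 and 12, and 48.6, 42.9, 64.6 and 38.5 in male OVA 1, 5, 8 and 13. The male control was closer to male OVA 13 than to the female control, and the difference was 0.66 ± 0.20 (SE) with an adjusted p of 0.389. In the second Cdc45 probe set past the filter all 6 OVA mice, at 16.6 to 20.9, were below both controls, at 21.7 and 22.7, with a difference of -0.25 and an unadjusted limma p of 0.0398. With both probe sets averaged the Cdc45 difference was 0.21 (adjusted p 0.530). Gins1, a subunit of the GINS complex, stood at 57.2 and 63.2 in the controls and 65.2 to 96.6 with a median of 72.9 in OVA mice, a difference of 0.34 ± 0.16 (SE), and 0.19 without female OVA 12 and male OVA 8.

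Of the 6 genes of the clamp and its loader, 3 were higher at an unadjusted limma p under 0.05, beside 6.39% of all genes. They are among the 8 such members named above. Rfc3, a small subunit of the loader, had an intensity of 87.8 in the female control, 81.8 in the male control, 153 and 178 in female OVA 2 and 12, and 135, 114, 165 and 120.5 in male OVA 1, 5, 8 and 13. The 6 OVA mice were all well above both controls, which differed from each other by less than the OVA mice did, and the difference was 0.76 ± 0.15 (SE) with an adjusted p of 0.303. Its second probe set, from 47.4 to 95.0, had a difference of 0.43, with male OVA 5 at 50.6, between the controls. Rfc4, another small subunit, stood at 114 in the female control, 82.6 in the male control, 145 and 169 in female OVA 2 and 12, and 153, 136, 202 and 122 in male OVA 1, 5, 8 and 13. The OVA mice were again above both controls, male OVA 13 by the least, with a difference of 0.65 ± 0.19 (SE) and an adjusted p of 0.389. Pcna, the sliding clamp itself, stood at 2032 in the female control, 1667 in the male control, 2215 and 2892 in female OVA 2 and 12, and 2378, 2059.6, 2557 and 2086 in male OVA 1, 5, 8 and 13. Male OVA 5 lay just above the female control, and the difference was 0.38 ± 0.14 (SE) with an adjusted p of 0.412. For the remaining subunits the differences were 0.38 ± 0.17 (SE) for Rfc2 and 0.33 ± 0.22 (SE) for the large subunit Rfc1. For Rfc5 the difference was 0.14 ± 0.15 (SE). With female OVA 12 and male OVA 8 left out the differences for Rfc2, Rfc1 and Rfc5 were 0.23, 0.13 and 0.050. In the brightest probe sets only Rfc2 of these had all OVA mice above both controls. Other probe sets of Rfc1 past the filter, with differences of 0.39 and 0.48, had all 6 OVA mice above both controls. Those of Rfc2 had differences of 0.32, with 6 OVA mice above both, and 0.24, with 4 above both.

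Among genes that coat and prime single-stranded DNA, Rpa2, the middle subunit of the RPA complex, stood at 126 in the female control, 141 in the male control, 219 and 246 in female OVA 2 and 12, and 172, 153, 222 and 156 in male OVA 1, 5, 8 and 13. The groups did not overlap, female OVA 12 and male OVA 8 were highest, and the difference was 0.55 ± 0.18 (SE) with an adjusted p of 0.402. Its second probe set had a difference of 0.80, with controls at 58.4 and 54.1 and OVA mice at 78.7 to 125. Rpa1, the large subunit of the same complex, stood at 509 and 508 in the controls and 502 to 898 with a median of 613 in OVA mice, a difference of 0.37 ± 0.23 (SE), and male OVA 13 lay below both controls. The Rpa1 difference was 0.15 without female OVA 12 and male OVA 8. Prim1, the catalytic subunit of primase, stood at 200.4 in the female control, 183 in the male control, 223 and 269 in female OVA 2 and 12, and 255, 236, 294 and 224 in male OVA 1, 5, 8 and 13. All OVA mice were above both controls, with a difference of 0.37 ± 0.13 (SE) and an adjusted p of 0.412. The second Prim1 probe set past the filter had a difference of 0.33. There 5 OVA mice were above both controls, and male OVA 13, at 155, lay between them. Pola1, the catalytic subunit of the polymerase that works with primase, was different in pattern. It stood at 59.0 in the female control, 48.8 in the male control, 47.0 and 59.0 in female OVA 2 and 12, and 62.3, 59.7, 117 and 48.1 in male OVA 1, 5, 8 and 13, so male OVA 8 alone was far above the rest and the groups overlapped, with a difference of 0.17 ± 0.29 (SE), and -0.0058 without female OVA 12 and male OVA 8.

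Genes that join Okazaki fragments on the lagging strand had the smallest median difference of any replication step, 0.13 over 2 members. Lig1, the replicative DNA ligase, stood at 163 in the female control, 187 in the male control, 173 and 232 in female OVA 2 and 12, and 183, 164, 279 and 170.3 in male OVA 1, 5, 8 and 13. Female OVA 12 and male OVA 8 were above both controls and the other OVA mice were not, with a difference of 0.16 ± 0.21 (SE), an adjusted p of 0.769 and -0.036 without those 2 mice. Fen1, the flap nuclease, had a difference of 0.11 ± 0.16 (SE), while its second probe set past the filter had 0.43. Without the same 2 mice the Fen1 difference was -0.031. For the ribonucleotide reductase that makes DNA precursors, the small subunit Rrm2 stood at 256 in the female control, 213 in the male control, 284 and 384 in female OVA 2 and 12, and 349.6, 258, 510.0 and 242 in male OVA 1, 5, 8 and 13. Male OVA 13 lay between the controls, and the difference was 0.49 ± 0.27 (SE) with an adjusted p of 0.508, and 0.29 without female OVA 12 and male OVA 8. The large subunit Rrm1 had a difference of 0.30 ± 0.21 (SE) and 3 of 6 OVA mice above both controls, and 0.14 without the same 2 mice. Its second probe set past the filter had a difference of 0.56 (unadjusted limma p 0.0335). There all 6 OVA mice, at 47.4 to 88.9, were above both controls, at 44.5 and 43.2.

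Of the checkpoint genes, 2 of 4 had all OVA mice above both controls in their brightest probe set, Rad1 and Chek1, beside 7.99% of all genes. Rad1, a ring subunit of the checkpoint clamp, had the smallest p of the 11988 genes, in a list drawn up with earlier results of these mice known. That rank is over the brightest probe set of each gene. Over all probe sets tested the smallest adjusted p was 0.210, below that of Rad1. Rad1 intensity was 29.4 in the female control, 23.1 in the male control, 48.2 and 55.9 in female OVA 2 and 12, and 40.1, 40.5, 48.5 and 38.0 in male OVA 1, 5, 8 and 13. Every OVA mouse exceeded the higher control by more than the controls differed, and the difference was 0.73 ± 0.12 (SE) with an adjusted p of 0.241. Rad1 also kept most of its difference without female OVA 12 and male OVA 8, at 0.65, where Rfc3 had 0.64. Chek1, the effector kinase, stood at 25.5 in the female control, 34.1 in the male control, 47.4 and 56.5 in female OVA 2 and 12, and 55.8, 54.9, 61.7 and 37.5 in male OVA 1, 5, 8 and 13. Male OVA 13 was the lowest OVA mouse, close to the male control, and the difference was 0.70 ± 0.18 (SE) with an adjusted p of 0.362. Its other probe sets past the filter had differences of 0.47, with 6 OVA mice above both controls, and -0.03, with 0 above both. Hus1, the partner of Rad1 in the ring, stood at 45.3 and 36.8 in the controls and 42.7 to 54.9 with a median of 48.6 in OVA mice, a difference of 0.26 ± 0.11 (SE), with 3 OVA mice above both controls. Exo1, an exonuclease of repair, had a difference of 0.27 ± 0.18 (SE), and 0.14 without female OVA 12 and male OVA 8. Its second probe set past the filter also had 0.27. There all 6 OVA mice, at 13.0 to 16.7, were above both controls, at 12.3 and 10.6, all near the filter.

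**Figure D2:**
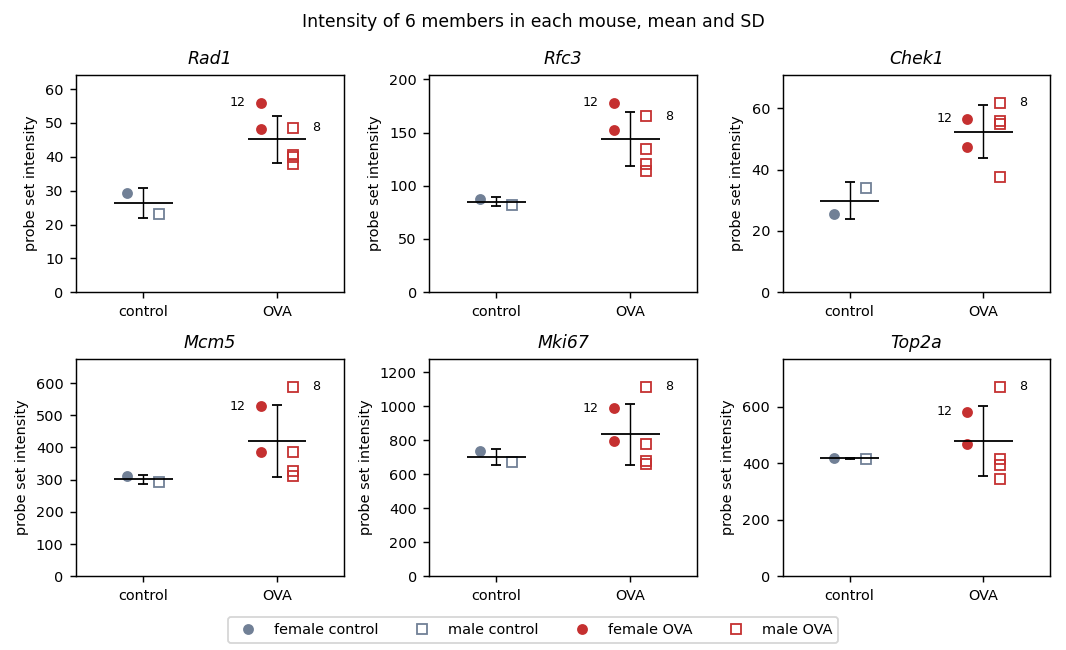
Probe set intensity (linear axis from 0) of 6 members in each mouse, females as filled circles and males as open squares, grey for controls (n = 2) and red for OVA mice (n = 6), with the mean and SD in black and OVA mice 12 and 8 numbered. For Rad1, Rfc3, Chek1 and Mcm5 all 6 OVA mice lie above both controls, and for Mki67 and Top2a the groups overlap while mice 12 and 8 lie highest. Panels show brightest probe sets, and for Rfc3, Chek1 and Mcm5 another past the filter did not part the groups. All 6 OVA mice lay above both controls for 9 of 24 replication and 2 of 4 checkpoint genes, beside 7.99% of all genes.

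All 10 mitosis genes past the filter had positive differences in their brightest probe sets, between 0.10 and 0.35, where 53.7% of all genes did. None had all OVA mice above both controls, beside 7.99% of all genes. None had an unadjusted limma p under 0.05, beside 6.39% higher and 3.82% lower of all genes. With 10 genes, the lack of either lies near those shares. Cdk1, the kinase of mitotic entry, had the smallest p of them and stood at 289.7 in the female control, 267 in the male control, 381 and 456 in female OVA 2 and 12, and 333, 238, 342 and 292 in male OVA 1, 5, 8 and 13. Male OVA 5 was the lowest of all mice, below both controls, and the difference was 0.32 ± 0.16 (SE) with an adjusted p of 0.484. Birc5, the survivin subunit of the chromosomal passenger complex, stood at 232 in the female control, 236 in the male control, 277 and 353 in female OVA 2 and 12, and 277, 233, 326 and 249 in male OVA 1, 5, 8 and 13. Male OVA 5 lay between the controls, and the difference was 0.29 ± 0.15 (SE) with an adjusted p of 0.497. Mki67, the proliferation antigen Ki-67 that coats mitotic chromosomes, stood at 736 in the female control, 670.1 in the male control, 797 and 987 in female OVA 2 and 12, and 779.6, 679, 1113 and 660.0 in male OVA 1, 5, 8 and 13. Male OVA 13 was lowest and male OVA 5 lay between the controls, with a difference of 0.25 ± 0.20 (SE) and an adjusted p of 0.624. Top2a, the topoisomerase that untangles sister chromosomes, stood at 419 in the female control, 415 in the male control, 467 and 581 in female OVA 2 and 12, and 416, 343, 669.6 and 394 in male OVA 1, 5, 8 and 13. Only 3 OVA mice were above both controls, and the difference was 0.19 ± 0.23 (SE) with an adjusted p of 0.757, and -0.0076 without female OVA 12 and male OVA 8.

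For the other mitosis genes the differences were 0.35 ± 0.24 (SE) for Aurkb, the Aurora kinase of the passenger complex, 0.27 ± 0.17 (SE) for cyclin B2 (Ccnb2) and 0.26 ± 0.13 (SE) for Aurka, the Aurora kinase of the spindle poles. They were 0.19 ± 0.19 (SE) for Cdc20, the activator of the anaphase ubiquitin ligase, 0.11 ± 0.15 (SE) for the Polo kinase Plk1 and 0.10 ± 0.24 (SE) for Bub1, a spindle checkpoint kinase. Here too the estimates varied with the probe set. Others past the filter had 0.16 for Aurkb and 0.04 for Top2a, each with 3 OVA mice above both controls. For Cdc20 the others had 0.23 and 0.38, with 4 and 5 OVA mice above both. In the brightest probe sets without female OVA 12 and male OVA 8 the differences were 0.21 for Cdk1, 0.16 for Birc5 and 0.088 for Mki67. They were 0.16 for Aurkb, 0.13 for Ccnb2 and 0.18 for Aurka. For Cdc20, Plk1 and Bub1 they were 0.054, 0.0051 and -0.048. The median over mitosis genes was 0.16 without the female control, where the contrast is within males, and 0.33 without the male control.

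**Figure D3:**
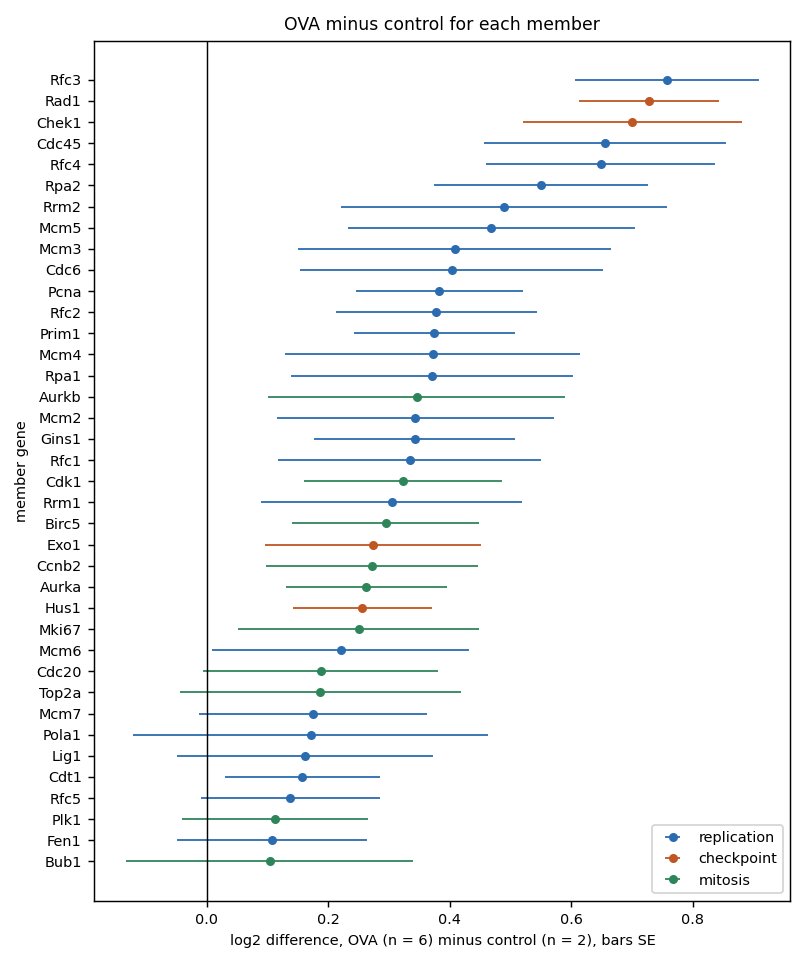
Log2 difference between OVA (n = 6) and control (n = 2) mice for each of the 38 members, from the fit with sex, on the horizontal axis, with bars of 1 SE and colours for the 3 classes. All 38 points lie to the right of 0, from Bub1 at 0.10 to Rfc3 at 0.76, and the 10 mitosis genes lie at 0.35 or below. Points are for the brightest probe set of each gene, and 1 other probe set of Cdc20 had 0.38.

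Replication and mitosis genes parted in single mice, which is given as a description without a test because the members were chosen with results known. Male OVA 5 was above both controls for 16 of 24 replication genes and 2 of 4 checkpoint genes. The same mouse was above both for 0 of 10 mitosis genes and below both for 7 of 10, while 40.7% of all genes were above both controls and 29.9% below. Male OVA 13 was above both for 11 of 24 replication and 2 of 10 mitosis genes, and below both for 9 and 7, with 34.7% of all genes above and 27.9% below. Male OVA 8 was above both controls for all 38 members and female OVA 12 for 37 of 38, where 43.4% and 45% of all genes were. Female OVA 2 was above both for 34 members and male OVA 1 for 29, beside 32.1% and 41.3% of all genes. In female OVA 2 the members above included 9 of 10 mitosis genes, and in male OVA 1 they included 8.

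The mean log2 level of a class, set against its own mean over the 8 arrays, shows the same parting. The replication level was -0.23 and -0.29 in the female and male control, 0.03 and 0.34 in female OVA 2 and 12, and 0.01, -0.15, 0.50 and -0.21 in male OVA 1, 5, 8 and 13. The mitosis level was -0.11 and -0.19 in the controls, 0.11 and 0.35 in female OVA mice, and -0.01, -0.29, 0.37 and -0.24 in male OVA mice. Male OVA 5 was thus below both controls in the mitosis level and above both in the replication level. Male OVA 13 was below both controls in the mitosis level and close to the female control in the replication level. The replication level minus the mitosis level, relative to its mean, was -0.12 and -0.10 in controls, -0.09 and -0.01 in female OVA mice and 0.02, 0.14, 0.13 and 0.03 in male OVA mice. The mean fitted OVA difference of replication genes exceeded that of mitosis genes by 0.13, and by 0.07 within females, that is without the male control, and 0.18 within males.

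Probe sets of 1 gene mostly had the same sign. Of the 70 member probe sets past the filter, 67 were higher in OVA mice and 3 lower, beside 54.5% higher of all 22518, and 17 were higher at an unadjusted p under 0.05, beside 6.88%. Of the lower ones 1, the second of Cdc45, had such a p. Of 23 members with several such probe sets, Cdc45, Cdt1 and Chek1 had 1 of opposite sign. The brightest probe set stood for 5 members with the suffix x_at and for 4 with s_at, probe sets that by their design can also bind related transcripts.

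Other genes of the cell cycle, from lists with no member in them, are given by step. Of other replication genes 38 of 40 passed the filter, and 35 were higher with a median difference of 0.29. None passed with limma after adjustment, and 9 were higher at an unadjusted p under 0.05 and 0 lower. The shares of all genes, for this list and those below, were 6.39% higher and 3.82% lower. Tipin, part of the fork protection complex, stood at 324 ± 76.8 (SD, n = 6) after OVA and 192 ± 30.6 (SD, n = 2) after saline, a difference of 0.77 ± 0.21 (SE). For the thymidine kinase Tk1 the difference was 0.36 ± 0.12 (SE). Other mitosis genes were higher in 51 of 53 (median 0.22, 6 higher and 0 lower at an unadjusted p under 0.05, 0 after adjustment), in 53 of 53 within females and 33 of 53 within males. Among these, Ncapg, a condensin subunit, stood at 85.7 ± 16.9 (SD, n = 6) after OVA and 52.5 ± 1.00 (SD, n = 2) after saline, a difference of 0.68 ± 0.16 (SE), and the spindle checkpoint gene Mad2l1 had a difference of 0.57 ± 0.19 (SE). Other checkpoint and repair genes were higher in 21 of 24 (median 0.21, 3 higher and 0 lower at an unadjusted p under 0.05, 0 after adjustment), with 0.67 ± 0.23 (SE) for Brca1, of homologous repair, and 0.60 ± 0.21 (SE) for Dscc1, of an alternative clamp loader. Without female OVA 12 and male OVA 8 the medians were 0.17 for other replication genes (33 of 38 higher), 0.07 for other mitosis genes (40 of 53) and 0.13 for other checkpoint and repair genes (18 of 24).

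Regulators of the entry into S phase and inhibitors of the cycle had medians nearer to that of all genes. Of 18 regulators past the filter 14 were higher (median 0.10, 2 higher and 0 lower at an unadjusted p under 0.05, beside 6.39% and 3.82% of all genes, 0 after adjustment). E2f1, the transcription factor that binds E2F sites, stood at 33.2 ± 3.57 (SD, n = 6) after OVA and 25.6 ± 1.44 (SD, n = 2) after saline, a difference of 0.30 ± 0.11 (SE), and Skp2, of a ubiquitin ligase for cycle inhibitors, had 0.29 ± 0.10 (SE). Of the regulators 9 of 18 were higher without female OVA 12 and male OVA 8, with a median of -0.00033. Of 13 inhibitors 6 were higher and 7 lower, with a median of -0.02, 1 higher and 1 lower at an unadjusted p under 0.05, and 0 after adjustment. Cdkn2d, an inhibitor of the cyclin D kinases, stood at 153 ± 33.1 (SD, n = 6) after OVA and 102 ± 2.82 (SD, n = 2) after saline, a difference of 0.56 ± 0.20 (SE), and 0.37 without female OVA 12 and male OVA 8. Cdkn1a, the inhibitor p21, stood at 455 ± 92.8 (SD, n = 6) after OVA and 645 ± 123 (SD, n = 2) after saline, a difference of -0.53 ± 0.22 (SE).

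Marker levels of other cell types differed alongside the members, and their part in the result was not tested. All 11 B cell markers past the filter, of 12 listed, were higher in OVA mice (median 0.52), as were all 8 germinal centre markers of 10 listed (median 0.71). Summed germinal centre intensity was 829.2 to 972 in controls and 1132 to 2377 in OVA mice, and summed B cell intensity 3497 to 3816 and 3563 to 7473. The germinal centre level was -0.35 and -0.65 in the controls, 0.02 and 0.42 in female OVA 2 and 12, and 0.13, -0.18, 0.87 and -0.26 in male OVA 1, 5, 8 and 13. T cell markers were higher in 7 of 8, with a median of 0.28 and sums of 663 to 780 in controls and 692 to 1056 in OVA mice. Crypt and stem cell markers were lower in 9 of 10 (median -0.26), with sums of 2888 to 2915 in controls and 2252 to 2656 in OVA mice. Epithelial markers were lower in 10 of 10 (median -0.22), with sums of 22005 to 23195 in controls and 14731 to 22838 in OVA mice. Without female OVA 12 and male OVA 8 the medians were 0.21 for B cell (9 of 11 higher), 0.48 for germinal centre (8 of 8 higher), 0.11 for T cell, -0.23 for crypt and -0.14 for epithelial markers. No array value was at 0. The beta-actin 3′ to 5′ intensity ratio, a measure of RNA integrity, was 1.43 and 1.54 in controls. It was lower than both, at 1.29 to 1.37, in 5 of 6 OVA mice, and 1.58 in male OVA 8, the highest of all 8 arrays. The Gapdh ratio was 0.896 and 1.00 in controls, below both at 0.834 to 0.891 in 5 of 6 OVA mice and 0.960 in male OVA 8. The part of RNA integrity in the result was not tested.

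**Figure D4:**
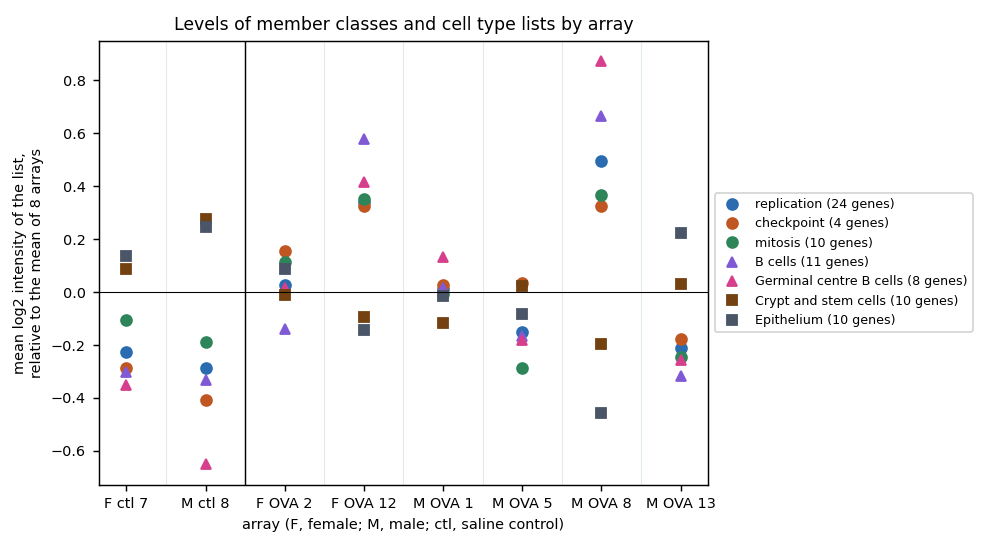
Mean log2 intensity of each member class (circles), of B cell and germinal centre markers (triangles) and of crypt and epithelial markers (squares) on each array, less the 8-array mean; the vertical line parts the 2 controls from the 6 OVA mice. The member classes and the B cell and germinal centre markers are highest in female OVA 12 and male OVA 8, where the epithelial markers are lowest, at -0.14 and -0.46.

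Female mice had higher fitted means than males in 34 of 38 members, with a median difference of 0.17, where 46% of all genes were higher in females. No member passed limma with adjustment (smallest adjusted p 0.901), beside 0.0417% of all genes. At an unadjusted p under 0.05, 3 members were higher and 0 lower, beside 1.16% and 4.16% of all genes. Aurka stood at 95.7 ± 16.7 (SD, n = 3) in females and 77.1 ± 9.6 (SD, n = 5) in males, a log2 difference of 0.32 ± 0.12 (SE). Cdk1 stood at 376 ± 83.4 (SD, n = 3) and 294 ± 43.7 (SD, n = 5), a difference of 0.38 ± 0.15 (SE). The difference for Rad1 was 0.29 ± 0.10 (SE). All 10 mitosis genes were on the higher side in females, with a median of 0.21. Without female OVA 12 the count over all members was 25 of 38.

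The OVA difference was positive for 37 of 38 members within females (2 OVA mice against 1 control, median 0.36) and for 38 of 38 within males (4 against 1, median 0.27), where 56.2% and 51.3% of all genes were. Pola1 was the exception, at -0.15 within females. Whether the OVA difference itself depended on sex (males minus females) was tested with limma in a fit of 4 group means that assumes each lone control varies like the other arrays. No member passed after adjustment (smallest adjusted p 0.689) or had an unadjusted p under 0.05, beside 0% and 7.09% of all genes. The smallest p among members belonged to Rpa2, with an OVA difference of 0.86 in females and 0.29 in males and a difference between them of -0.57 ± 0.31 (SE). For Cdc45 these values were 0.96, 0.40 and -0.56 ± 0.38 (SE).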

How the data were processed

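Total RNA of Peyer's patches was labelled with biotin and read on single-colour arrays, 1 per mouse. The authors deposited a normalized linear intensity for each probe set. MAS5 made them, per the submitters' processing notes, with a version and scaling target not given in the sources used here. Intensities ran from 1.86 to 14749 and were taken to log2(value + 4.88), 4.88 being the 25th percentile, with no further scaling. The 64 AFFX controls were dropped, and the 22518 probe sets above the median mean log2 value were tested. The annotation table gave a single symbol to 34945 probe sets, more than 1 to 932 and no symbol to 9160. Of the tested probe sets that name only a given gene, the brightest stood for it (11988 genes). With limma 3.58.1 in R 4.3.3, lmFit and eBayes fitted treatment and sex on all 8 arrays (5 residual degrees of freedom), two-sided, with Benjamini-Hochberg adjustment over probe sets and a threshold of 0.05. Female minus male came from the same fit, and the OVA effect by sex from 4 group means (4 residual degrees of freedom). The fit was tested on simulated data. Python 3.11.15 with pandas 2.3.3 and matplotlib 3.10.9 made tables and figures.

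The members and lists were chosen with earlier results of these data known, so lists are described by counts and medians, without a test. Per-array values are given for the member of smallest p in each of 9 role classes, the next 4 of smallest p, and Pcna, Mki67 and Top2a, and values for the 2 genes of smallest p in other pathway lists. For the sexes the 3 members of smallest p are named, and for the OVA effect by sex the 2. Mcm4 and Pola1 are shown by array as well, chosen after their values were seen, and other members by their difference. Alternatives were another pseudocount (1, or the median value), quantile normalization, median centring, no filter, a 75th percentile filter, array weights, a robust variance with trend, a fit without sex, each sex alone, the sexes compared within OVA arrays, averaging a gene's probe sets, and leaving out each array. Marker lists were B cells, germinal centre B cells, T cells, plasma cells, crypt and stem cells, epithelium, enterocytes, smooth muscle, and neurons and glia. Median OVA differences of lists not in the results were -0.22 for smooth muscle, 0.03 for neurons and glia, -0.03 for plasma cells and -0.19 for enterocytes.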

Additional observations from a re-analysis of the deposited data

Results flagged for a closer look

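Among the 20 genes and class levels with values by mouse, each tested in the 4 male OVA mice and in all 6 OVA mice, 40 groups in all, 1 held a mouse far from the others by Dixon's criterion. The intensity of Lig1, the replicative ligase, was 279 in male OVA 8, and the gap to the next male OVA mouse took up 0.835 of the range of the 4. Chance gives about 1 such group in 20, so 1 in 40 is no more than chance gives. The 40 groups share mice and are not independent of each other. No member passed limma with adjustment for a difference between the sexes in its OVA effect, and none of the named members moved in opposite directions in every mouse of the 2 sexes.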

How the results depend on the processing

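No member passed limma with adjustment for OVA, sex or their interaction under any of the alternatives run. Members higher in OVA mice numbered 31 of 31 with the filter at the 75th percentile, 38 of 39 with no filter, and otherwise 33 to 38 of 38, the lowest without female OVA 12 and male OVA 8 together. That setting, added after seeing the data, turned 5 members to the lower side, Lig1 (-0.036), Top2a (-0.0076), Pola1 (-0.0058), Fen1 (-0.031) and Bub1 (-0.048). Members with all OVA mice above both controls numbered 11, 8 to 16 under other settings, and 35 in females alone, where 2 mice stand against 1. Leaving out 1 array gave medians of 0.27 to 0.43 for replication, 0.41 to 0.54 for checkpoint and 0.16 to 0.33 for mitosis genes. An unadjusted p under 0.05 was then found for 4 to 11 members, fewest without the female control. Over all alternatives the differences ran from 0.62 to 0.81 for Rad1, from 0.59 to 0.87 for Rfc3, from 0.43 to 0.83 for Rfc4, from 0.38 to 0.90 for Chek1, from 0.29 to 0.86 for Rpa2, from 0.29 to 0.60 for Rrm2, from 0.28 to 0.45 for Prim1, from 0.28 to 0.47 for Pcna, from 0.26 to 0.55 for Mcm5, from 0.21 to 0.96 for Cdc45, from 0.16 to 0.52 for Cdk1, from 0.16 to 0.43 for Birc5, from 0.088 to 0.31 for Mki67, from -0.0076 to 0.31 for Top2a and from -0.036 to 0.29 for Lig1. Their adjusted p ran from 0.189, for Rad1, to 0.992, for Top2a. Members higher in females numbered 25 to 37. No scaling moved the median of all genes by more than 0.1. With 2 controls, an adjusted p that misses the threshold does not show that a gene was alike in both groups. No paired analysis was possible because the groups compared share no more than 1 replicate number, and nothing in the labels ties mice of the same number.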

Other observations

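The D cyclins, E2F factors and Myc, genes of the G1 phase, were picked for this paragraph after their values were seen. Ccnd1, the D cyclin of dividing epithelium and stroma, stood at 209.8 ± 42.2 (SD, n = 6) after OVA and 276 ± 10.3 (SD, n = 2) after saline, a log2 difference of -0.38 ± 0.18 (SE). Ccnd3, the D cyclin of germinal centre B cells, had 0.26 ± 0.21 (SE), and Ccnd2 had 0.00 ± 0.10 (SE). Of the E2F factors, E2f7 had 0.20 ± 0.11 (SE), E2f8 0.14 ± 0.17 (SE), E2f2 0.05 ± 0.22 (SE) and E2f3 -0.06 ± 0.09 (SE). The growth regulator Myc stood at 67.8 ± 14.1 (SD, n = 6) after OVA and 62.8 ± 0.442 (SD, n = 2) after saline. None of these passed limma with adjustment (adjusted p 0.472 for Ccnd1, which was the smallest among those named here).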
